A study of Arabidopsis thaliana with 12 samples.

Results

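CSLA01 (AT4G16590), a gene of the mannan synthase family, and 4 endoglucanase genes of glycoside hydrolase family 9, GH9B8 (AT2G32990), GH9B11 (AT2G44560), GH9B12 (AT2G44570) and GH9B16 (AT4G38990), were followed on an expression array of Arabidopsis thaliana. They were taken from the 691 genes that the platform's gene table pairs alone with a feature, and each of the 5 had 1 such feature. The plant cell wall is built of cellulose chains held in a matrix of hemicelluloses and pectins. Proteins of the CSLA family sit in the Golgi apparatus and join sugars into the backbone of mannan and glucomannan, which are hemicelluloses. Endoglucanases of family 9 cut inside chains of the cellulose type, and plants use them when cells grow, when walls are remodelled and when organs separate. Enzymes of subclass B are secreted and lack the carbohydrate-binding domain of subclass C and the membrane anchor of subclass A, which includes KORRIGAN, an enzyme needed for cellulose synthesis.

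Plants kept under light specific for photosystem II (PSII) and treated with DCMU were set against plants kept under light specific for photosystem I (PSI) without DCMU. All were wild type of the ecotype C24, and total RNA was measured in 6 samples of each group. DCMU is a herbicide that blocks electron transfer from PSII to plastoquinone, so electrons from PSII do not reach PSI, while PSI light draws electrons out of the plastoquinone pool. PSII light alone and PSI light plus DCMU were not among the samples, so the light and the herbicide cannot be told apart. Age, organ and exposure time are not given in the sources used here. Of 12 marker genes of green tissue, LHB1B2, which encodes a light-harvesting protein of PSII, was measured, at 8.23 to 11.0 under PSII light with DCMU and 9.80 to 14.1 under PSI light, and none of the 6 marker genes of root, 5 of seed and 4 of pollen was measured.

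The table held 1 intensity on a linear scale for each of 3439 features and each sample. Column medians were 0.632 to 0.687 under PSII light with DCMU and 0.542 to 0.584 under PSI light. Samples 1 and 2, 3 and 4, and 5 and 6 of a group acted as technical pairs and were averaged to replicates 1, 2 and 3, so n = 3 per group. Whether the replicates are separate plants is not stated, so each p-value rests on a spread between samples that may be technical. All values of the 5 genes, 0.240 to 1.57, lay above the floor of 0.0431 that was set for low values. The array cannot tell less RNA per cell from fewer cells that make it. Precision is limited by the small number of arrays.

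CSLA01 and GH9B16 were lower under PSII light with DCMU, where CSLA01 fell by 61.0% and GH9B16 fell by 39.6%. GH9B8 and GH9B11 had lower means in that group without passing the test, and GH9B12 had nearly the same mean in both groups. Of the 5 genes 2 were called lower and 0 higher, at an adjusted p under 0.05 (limma, Benjamini-Hochberg over all 3439 features). Over all features 22.0% were called lower, 26.4% higher and 48.5% in either direction, and with 5 genes the count of 2 is not set apart from these shares. The median log2 change was -0.60 over the 5 genes and 0.04 over all features. The split of all calls depended on the scaling, with 54.5% of them higher in the deposited values, 41.5% in quantile normalized ones and 40.9% once arrays were centred on their medians. Centring moved the median change of all features to -0.18, which by construction leaves changes relative to it as they were, at -1.40 for CSLA01 and -0.77 for GH9B16. After quantile normalization the changes relative to the median of all features were -1.46 for CSLA01 and -0.72 for GH9B16.

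**Figure D1:**
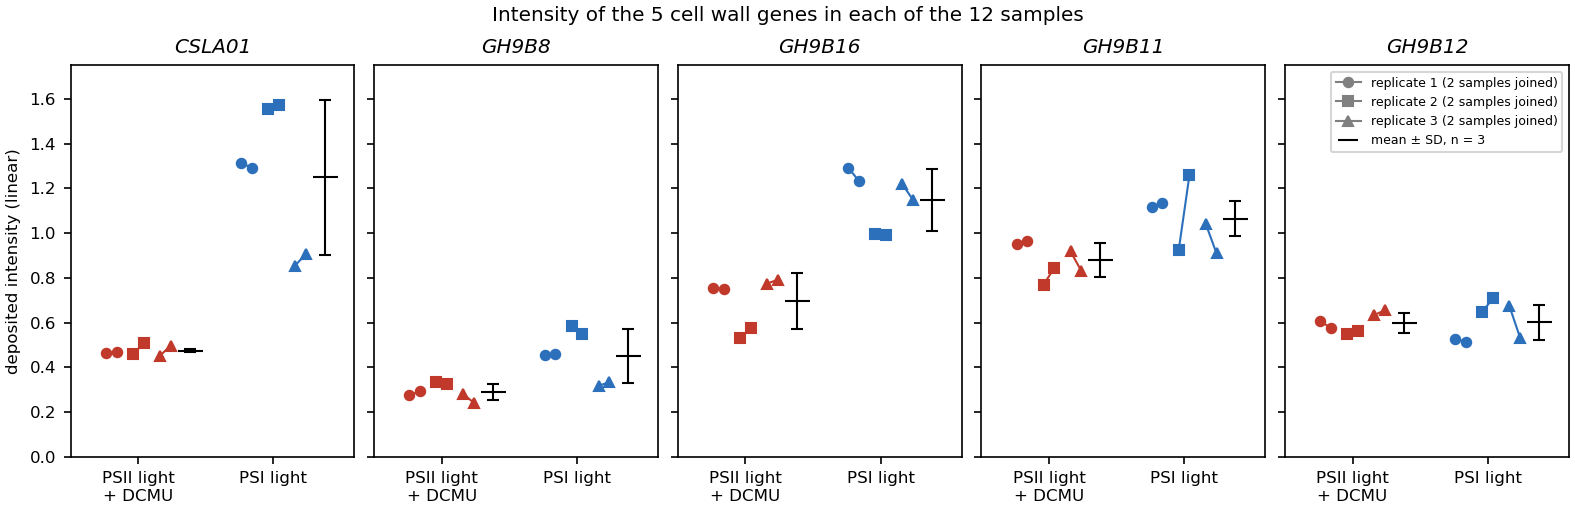
Deposited intensity (linear axis from 0) of the 5 genes in each sample, with PSII light with DCMU in red and PSI light in blue, the 2 samples of a replicate joined, and the mean ± SD of 3 replicates in black. CSLA01 lies at 0.452 to 0.507 under PSII light with DCMU, below all PSI light samples at 0.855 to 1.57, while the groups of GH9B12 cover the same range.

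CSLA01 had replicate intensities of 0.466, 0.483 and 0.474 under PSII light with DCMU, against 1.30, 1.56 and 0.880 under PSI light. The 6 samples under PSII light with DCMU were nearly alike (lowest 0.452, median 0.467, highest 0.507), and the PSI light samples were spread (lowest 0.855, median 1.30, highest 1.57), with no overlap between the groups. The coefficient of variation over replicates was 1.69% under PSII light with DCMU and 27.6% under PSI light. PSI replicate 3 was the low one of its group, and its partners, at 0.855 and 0.905, were alike, so the spread lay between replicates and not between samples of a pair. Means were 0.474 ± 0.00802 under PSII light with DCMU and 1.25 ± 0.345 under PSI light (SD, n = 3 each).

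The log2 change of CSLA01 was -1.36 ± 0.224 (moderated SE, n = 3; limma adjusted p = 0.0081), with a 95% interval of -1.94 to -0.78, or 0.261 to 0.583 times the level under PSI light. Within the pair numbers, which also matched across the groups, it was -1.48, -1.70 and -0.89. Only 1.31% of all 3439 features had a lower change. The call stood under all 19 alternatives, with changes of -1.59 to -0.90 and adjusted p up to 0.0351. The smallest change, -0.90 ± 0.225 (adjusted p = 0.0120), came with the range of places 1 to 96 of the array order taken out. There the median of the features in this range, less the median of all features, was subtracted in each replicate. The difference between the array medians of the groups stayed in.

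GH9B16 had replicate intensities of 0.753, 0.554 and 0.783 under PSII light with DCMU, against 1.26, 0.993 and 1.18 under PSI light. Replicate 2 was the low one in each group, and the highest sample under PSII light with DCMU (0.791) stayed below the lowest under PSI light (0.990). Means were 0.697 ± 0.124 under PSII light with DCMU and 1.15 ± 0.139 under PSI light (SD, n = 3 each), a log2 change of -0.73 ± 0.174 (SE, n = 3; limma adjusted p = 0.0237). The 95% interval ran from -1.18 to -0.28. Because replicate 2 was low in both groups, the changes within pair numbers were close to each other, at -0.75, -0.84 and -0.60. The call ended without PSII_DCMU replicate 1, PSI replicate 1 or PSI replicate 3 (adjusted p = 0.0548 to 0.0680). It also ended with place in the array order taken out, which brought the change to -0.29 ± 0.163 (adjusted p = 0.174), while with brightness taken out as well it was -0.44 ± 0.146 and passed.

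GH9B8 had replicate intensities of 0.284, 0.329 and 0.260 under PSII light with DCMU, against 0.458, 0.567 and 0.326 under PSI light. The groups overlapped: the lowest PSI light sample, 0.318, was below the highest sample under PSII light with DCMU, 0.333, although each replicate under PSII light with DCMU was below the PSI replicate of its own number. As in CSLA01, PSI replicate 2 was the highest and PSI replicate 3 the lowest of the PSI light group. Means were 0.291 ± 0.0353 under PSII light with DCMU and 0.450 ± 0.121 under PSI light (SD, n = 3 each).

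The log2 change of GH9B8 was -0.60 ± 0.232 (SE, n = 3), with a 95% interval of -1.20 to -0.0024, and it did not pass after adjustment (limma adjusted p = 0.0872). Its changes within pair numbers were -0.69, -0.78 and -0.33, and a fit that took the pair number as a block let it pass (adjusted p = 0.0389). It passed under 7 of 19 alternatives, among them quantile normalization (-1.09 ± 0.179) and leaving out PSI replicate 3 (-0.82 ± 0.156, adjusted p = 0.0216). With place taken out it was -0.11 ± 0.245 (adjusted p = 0.742).

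GH9B11 and GH9B12 lie next to each other on chromosome 2, behind GH9B9 and GH9B10, in the gene order of the reference assembly TAIR10.1. GH9B11 had replicate intensities of 0.958, 0.807 and 0.874 under PSII light with DCMU, against 1.13, 1.09 and 0.975 under PSI light. The replicates did not overlap, but the samples did, since 1 sample of PSI replicate 2 and 1 of PSI replicate 3 (0.923 and 0.909) lay among those under PSII light with DCMU. The replicates of 3 of the 5 genes did not overlap, CSLA01, GH9B16 and GH9B11, each with the lower values under PSII light with DCMU, as in 27.0% of all features (60.7% in either direction). The partners of PSI replicate 2, 0.923 and 1.26, differed 1.37-fold, the largest difference within a pair in the 5 genes.

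The log2 change of GH9B11 was -0.27 ± 0.092 (SE, n = 3; limma adjusted p = 0.0643; 95% interval -0.51 to -0.03), from means of 0.880 ± 0.0759 under PSII light with DCMU and 1.06 ± 0.0791 under PSI light (SD, n = 3 each). The change within each pair number had the same sign (-0.23, -0.42 and -0.16). Its direction turned with place taken out, to 0.43 ± 0.148 (adjusted p = 0.0384). That value also holds the higher array medians under PSII light with DCMU, which taking out place left in. As reported, GH9B11 lay close to the median of the other features at its place, -0.37. It passed as a decrease after quantile normalization (-0.26 ± 0.063, adjusted p = 0.0226) and with arrays centred on their median (-0.49 ± 0.108, adjusted p = 0.00715).

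GH9B12 had replicate intensities of 0.591, 0.556 and 0.644 under PSII light with DCMU, against 0.520, 0.678 and 0.604 under PSI light. The groups covered the same range, 0.549 to 0.655 under PSII light with DCMU and 0.513 to 0.709 under PSI light. Means were 0.597 ± 0.0446 under PSII light with DCMU and 0.601 ± 0.0793 under PSI light (SD, n = 3 each). The log2 change was 0.0011 ± 0.119 (SE, n = 3; limma unadjusted p = 0.993), and its 95% interval of -0.31 to 0.31 bounds a change to between 0.809 and 1.24 times. The changes within pair numbers differed in sign (0.19, -0.29 and 0.10). With place taken out it passed as a rise (0.53 ± 0.163, adjusted p = 0.0249), and after quantile normalization it stood at -0.24 ± 0.109 without passing. Taking out place kept the difference between the array medians of the groups. The rise of 0.53 thus also holds the higher array medians under PSII light with DCMU. As reported, the change of GH9B12 lay above the median of the other features at its place, -0.33.

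**Figure D2:**
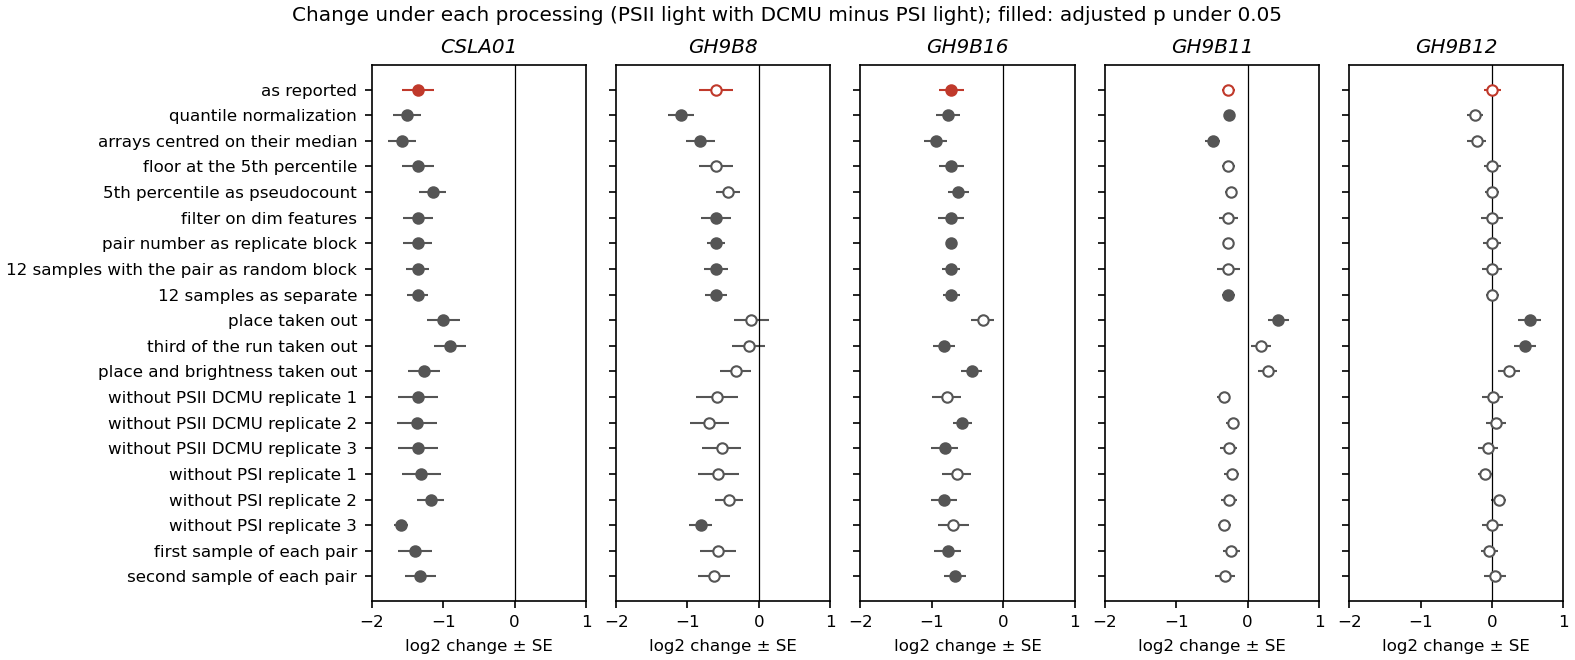
Log2 change (± SE) of each gene, PSII light with DCMU minus PSI light, as reported (red) and under each of 19 alternatives (grey), filled where the adjusted p is under 0.05. CSLA01 is filled throughout, from -1.59 to -0.90, while the points of GH9B11 and GH9B12 lie on either side of 0.

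Another 7 features were paired with several genes of which at least 1 belongs to family 9, and no gene can be named from them. Of these, at an adjusted p under 0.05, 3 were lower in plants given PSII light with DCMU, 0 were higher and 4 did not pass (limma), beside 22.0% of all features called lower. Of the 7, 5 lie at places 1 to 96 of the array order, where 40.5% of features were called lower, so the count is not set apart from these shares. A feature paired with 3 genes, GH9B16 among them, fell to 0.701 ± 0.0893 under PSII light with DCMU, against 1.74 ± 0.264 under PSI light (SD, n = 3 each), without overlap of samples (0.590 to 0.786, against 1.41 to 1.97). Its log2 change was -1.31 ± 0.158 (SE; adjusted p = 0.00328), and it passed as a decrease under all 19 alternatives, with -0.51 and an adjusted p of 0.0164 when place was taken out. On chromosome 4 GH9B16 is followed directly by GH9B17 and GH9B18, and the other genes paired with this feature are not named here.

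A feature paired with 4 genes, GH9B11 and GH9B12 among them, fell to 0.720 ± 0.112 under PSII light with DCMU, against 1.14 ± 0.163 under PSI light (SD, n = 3 each; log2 change -0.66 ± 0.162, SE; limma adjusted p = 0.0260). This call ended with place taken out (-0.24, adjusted p = 0.299) and with its range of 96 places taken out (-0.20, adjusted p = 0.366). Both settings kept the difference between the array medians of the groups. The call ended as well with place and brightness taken out (-0.34, adjusted p = 0.104). It also ended without PSII_DCMU replicate 2 or 3 or PSI replicate 1 or 2 (adjusted p = 0.0626 to 0.0809), at changes of -0.65 to -0.55. How far these features, or those paired with 1 gene, detect related genes was not tested, as no probe sequence was used here.

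**Figure D3:**
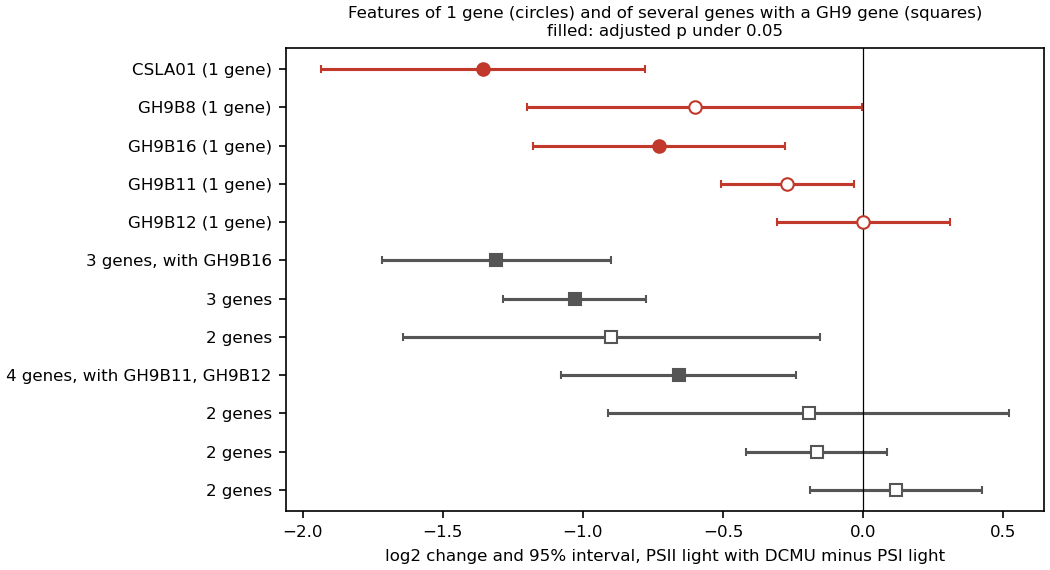
Log2 change with 95% interval, PSII light with DCMU minus PSI light, of the 5 features paired with 1 gene (red circles) and of the 7 features paired with several genes that include a family 9 gene (grey squares), filled where the adjusted p is under 0.05. The feature shared by GH9B16 and 2 other genes (-1.31) lies near CSLA01 (-1.36).

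Whether the genes changed unequally was compared over the 10 pairs of genes, on the difference of their log2 values in each replicate. With 3 replicates against 3 the exact two-sided permutation test cannot give a p below 0.1, so no pair could pass. The change of CSLA01 minus that of GH9B12 was -1.36 ± 0.25 (SE, n = 3; exact p = 0.1, adjusted p = 0.2 over 10 pairs), and minus that of GH9B11 it was -1.09 ± 0.215 (the same p-values). For these pairs, for CSLA01 and GH9B8, and for GH9B16 with GH9B11 or GH9B12, 5 in all, the replicate values did not overlap between the groups. With 3 against 3 this is the same result as the smallest exact p of 0.1, not a further one. For the neighbours, GH9B11 minus GH9B12, it was -0.27 ± 0.162 (exact p = 0.2, adjusted p = 0.25), and for GH9B8 minus GH9B16 it was 0.13 ± 0.40 (exact p = 0.7). This test did not use the pair numbers. Within them the difference had 1 sign in all 3 pairs for each of the 10 pairs of genes, at -0.42, -0.13 and -0.26 for GH9B11 minus GH9B12, and a two-sided sign-flip test over 3 pairs cannot give a p below 0.25. The 10 differences are built from the same 5 genes, so they are not independent, and the share among other pairs of features was not computed.

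Changes on this array also varied with the place of a feature in equal runs of the array's numbering, each of 3 ranges of 96 places. CSLA01, GH9B8, GH9B11 and GH9B12 lie in the first range, at places 1 to 96, where features had a median log2 change of -0.31, and GH9B16 lies in the last, with a median of 0.16. In the middle range the median was 0.42. In the first range 40.5% of features were called lower, against 8.73% in the middle range and 17.8% in the last. CSLA01 stood low within its own range of places, where 2.34% of features had a lower change, and GH9B16 likewise with 8.61%. In the range of GH9B8 28.6% of features had a lower change than it, in that of GH9B11 53.4% and in that of GH9B12 71.1%.

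At the exact place of each gene 12 to 14 other features could be set beside it. CSLA01 was below all 13 others at its place, whose changes ran from -1.11 to 0.66 with a median of -0.24. GH9B16 was below all but 1 of 14, with a median of -0.24, and GH9B8 had 3 of 14 below it, with a median of -0.21. GH9B11 had 10 of 14 below it (median -0.37) and GH9B12 9 of 12 (median -0.33). Features of like brightness, in 10 classes of about 344, had median changes of 0.0076 for the class of CSLA01, 0.45 for that of GH9B8, -0.10 for that of GH9B16 and GH9B11 and 0.16 for that of GH9B12. The part of place in these changes was not tested beyond the alternatives in which it was taken out.

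**Figure D4:**
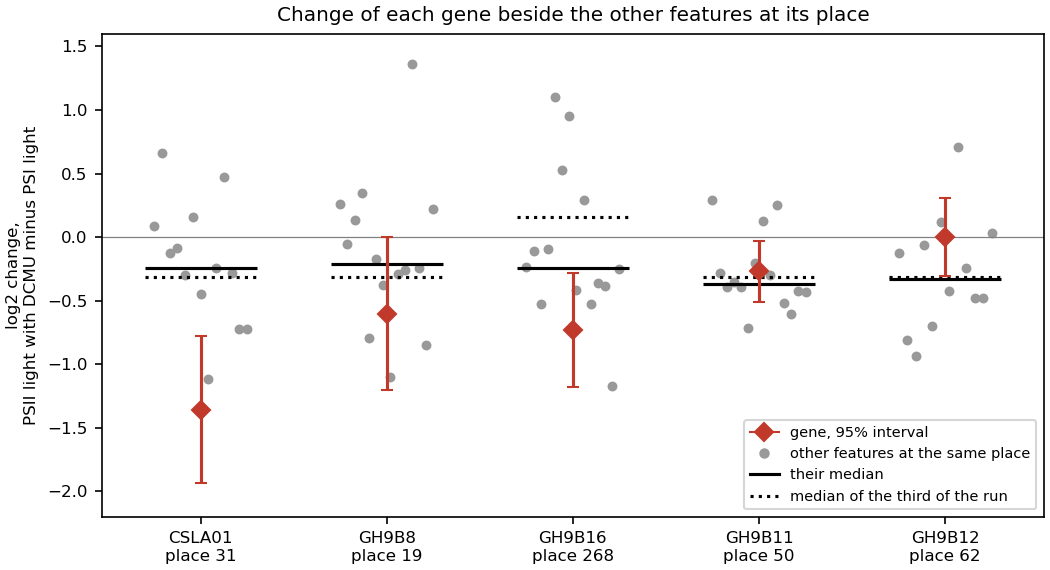
Log2 change of each gene with its 95% interval (red), PSII light with DCMU minus PSI light, beside the 12 to 14 other features at its place in the array order (grey), their median (solid line) and the median of its range of 96 places (dotted line). CSLA01, at -1.36, lies below every other feature at its place, and GH9B11 lies close to the median of its place.

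**Figure D5:**
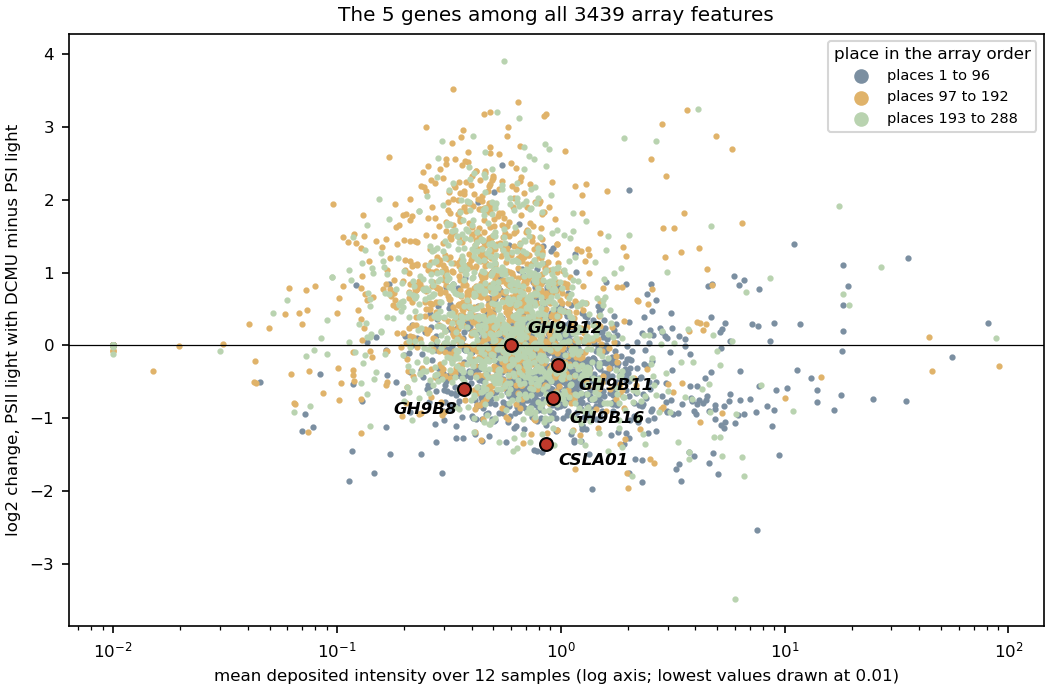
Log2 change, PSII light with DCMU minus PSI light, against mean intensity over 12 samples (log axis) for all 3439 features, coloured by range of places in the array order, with the 5 genes in red. The share of dimmer features runs from 23.0% for GH9B8 to 75.3% for GH9B11. CSLA01 lies at the lower edge of the changes, with 1.31% of features below it.

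The genes whose patterns were nearest were sought among 648 other named features above the floor, by the root mean square difference of log2 values over the 6 replicates after each gene was centred on its own mean. Nearest to CSLA01 were AT4G18180 (0.154) and AT4G30680 (0.156), and nearest to GH9B8 were AT3G12930 (0.0756) and AT4G26370 (0.11). AT4G16060 (0.051) and AT4G33480 (0.0738) were nearest to GH9B16. GH9B11 was nearest to PPDK, the gene of pyruvate orthophosphate dikinase (0.0538), and to AT5G02850 (0.0583), and GH9B12 to AT2G28790 (0.0719) and AT5G62550 (0.0793). CSLA01 thus had the least close neighbours of the 5. The measure is not scaled to the size of a gene's change, which was largest in CSLA01, so these distances do not rank how distinct the patterns are. Of these 10 genes, 5 lie in the same range of 96 places as the gene they resemble.

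Other genes of the cell wall were nearly absent from the named features. The 4 endoglucanase genes were the measured ones among 25 genes of family 9, and CSLA01 was the measured one among 9 CSLA genes. Of 10 CESA genes for cellulose synthase subunits, 14 genes of mannan supply and turnover, 23 other cellulose synthase-like genes, 33 genes of xyloglucan transglucosylases and hydrolases, 47 expansin genes, which loosen walls, and 58 genes of pectin enzymes, 0 had a feature of their own. In a list of 314 genes picked by cell wall words in their names, the measured 5 were again these genes. Features paired with several genes of which at least 1 was on any of these lists numbered 15, family 9 included. Of them 8 were called lower and 0 higher (limma, adjusted p under 0.05), beside 22.0% lower among all features. Of the 7 with a family 9 gene, 5 lie in the first range of places, where 40.5% of features were called lower. The count of lower features among these 7, 3 as reported, ran from 1 with place taken out to 6 with quantile normalization. Whether the 15 differ from other features at like places was not tested, so no result is drawn from their count. The places of those without a family 9 gene are not given here.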

How the data were processed

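The authors deposited 1 table of intensities on a linear scale, 0 to 100, for 3439 features and 12 samples. Their array type, scanner, background correction and scaling are not given in the sources used here, and no depth applies. Column means lay within 3.25% of their average, while column medians deviated from theirs by up to 11.9%. The tolerance was 10% for means or medians, and the means met it, so values were kept as deposited. Values below the 1st percentile of positive intensities (0.0431) were set to it (4.74% of values, none of them of the 5 genes) and log2 was taken. The gene table of the platform, possibly an old one, paired 692 features with 1 gene, 870 with several and 1877 with none. Identifiers of 690 were matched to the gene table of TAIR10.1, and the members are given without coordinates since the intensities name no build.

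On deviations from group means, correlations were 0.38 to 0.66 between partners (1 and 2, 3 and 4, 5 and 6) and -0.51 to -0.18 between the rest of a group. Deviations of a group sum to 0, so positive correlations between partners push the others below 0. The negative values are therefore not separate evidence for the pairs. For all 12 samples the partner was the best match, so partners were averaged on the log2 scale (on the linear scale for printed intensities). Same-numbered replicates of the 2 groups correlated at 0.29 to 0.36, so the numbers in the titles also pair the groups. This pairing comes from the data.

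The fit was limma 3.58.1 (lmFit, eBayes; R 4.3.3), PSII_DCMU minus PSI, two-sided, without a block, adjusted by Benjamini-Hochberg over all features. Python 3.11.15, scipy 1.17.1 and matplotlib 3.10.9 were used for the rest. Alternatives changed the scaling, the floor, a filter on dim features, the block, the averaging of pairs, the place and brightness of features and the replicates used. The members and lists were chosen with earlier results of these data known. Named were all 5 members, in each list the genes with the smallest p and the largest change (none apart from the members) and for each member the 2 genes of nearest pattern.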

Additional observations from a re-analysis of the deposited data

How the results depend on the processing

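CSLA01 kept its direction and its call under all 19 alternatives, and the counts of features called stayed within 1.5 times of the reported ones. GH9B16 kept its direction under all 19 and lost its call with place taken out (-0.29) and without certain single replicates. GH9B8 kept its direction under all 19 and passed after quantile normalization (-1.09), with arrays centred on their median (-0.82) and, at an unmoved change of -0.60, with dim features filtered out, with the pair number as a block, with the pair as a random block and with 12 samples as separate. GH9B11 passed with quantile normalization (-0.26), centring (-0.49) and 12 samples as separate (-0.27), and turned to 0.43 with place, 0.19 with the range of 96 places and 0.28 with place and brightness taken out. GH9B12, at 0.0011 as reported, turned to -0.24 with quantile normalization, -0.22 with centring, -0.00058 with the 5th percentile of positive intensities (0.139) as a pseudocount and -0.0401 with the first sample of each pair, and passed with place (0.53) and with the range of 96 places (0.46) taken out. Leaving out single replicates gave -1.59 to -1.18 for CSLA01, -0.82 to -0.42 for GH9B8, -0.83 to -0.57 for GH9B16, -0.33 to -0.21 for GH9B11 and -0.0969 to 0.0943 for GH9B12 (-0.06 without PSII_DCMU replicate 3). The difference in change between GH9B8 and GH9B16 turned to -0.32 with quantile normalization, and the other 9 kept their sign under the 6 alternatives run. Their sizes were less stable. With the range of 96 places taken out, CSLA01 minus GH9B16 went from -0.63 to -0.066, and GH9B16 minus GH9B11 from -0.46 to -1.02. The causes were not tested.

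The pair number as a block changed no other call among the 5 genes and the 2 shared features described. Taking out place or the range of 96 places kept the difference between the array medians of the groups. Changes under these settings therefore still hold that difference. With place taken out, 81 of 141 features at the floor in all replicates, where nothing was measured, were called, 90 with the range of 96 places taken out and 87 with place and brightness taken out, so calls kept, gained or lost under these corrections, that of GH9B16 with place and brightness included, are uncertain. The count of lower features among the 7 shared ones was 1 to 6 over the alternatives, which were chosen for them after the data were seen.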
